A study of Mus musculus with 12 samples.

Results

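The 4 Janus kinases (Jak1, Jak2, Jak3 and Tyk2) and 6 of their feedback inhibitors (Socs1, Socs2, Socs3, Socs5, Socs6 and Cish) were followed in 4T1 mammary tumours of mice under chronic restraint stress and of untreated mice. They were taken by gene symbol from the mRNA table, and all 10 were among the 22769 genes kept after those listed at 0 in every library, or named by a date, were left out. All 10 also passed the filter on low values, a mean log2 value of at least 4, which left 14098 genes for testing. The kinases were compared with the inhibitors because the former start, and the latter end, the signalling that activates STAT3, the factor named in the series' title.

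All tumours grew from 4T1 cells, a metastasising mammary carcinoma line, in Balb/c mice and were collected 35 days post inoculation. The stress group was restrained for 2 hours a day over 28 days, and the control group was left untreated. Each group had 3 mRNA libraries and 3 separate miRNA libraries. The labels name neither the animal behind a library nor a link between the mRNA and miRNA libraries of one number, so p-values measure the spread between these libraries, which may be in part technical. Whole tumours were sequenced, so fewer cells of a type and less RNA per cell cannot be told apart.

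Janus kinases sit on the inner tails of cytokine receptors, phosphorylate them when a cytokine binds, and then phosphorylate STAT factors, which enter the nucleus. STATs switch on the genes of the SOCS family, whose proteins bind the receptor or the kinase through an SH2 domain and recruit a ubiquitin ligase through their SOCS box. In mammary epithelium the best known circuit runs from the prolactin receptor through Jak2 to Stat5, with Cish and Socs2 among the genes it induces, while Socs3 is the classical brake on Stat3 downstream of gp130 and the G-CSF receptor.

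STAT dimers bind palindromes of the form TTCNNNGAA, which reads the same on both strands. RefSeq promoter windows on GRCm38.p6, from 250 bases before to 50 after the gene start, were at hand for 7 members: the 4 kinases, Socs1, Socs3 and Cish. The motif stood in 2 of the 7, Cish and Socs3, against 8.30% of 32851 promoters of the same length. Cish held it in 2 places, as did 0.457% of promoters with at least that number. The same arms with 4 bases between them were in none of the 7 (0 of 7) and in 6.95% of all. The Cish window (chr9:107296409-107296708, plus strand) and the Socs3 window (chr11:117969317-117969616, minus strand) are shown because they carry these matches, which are in capitals.
Cish: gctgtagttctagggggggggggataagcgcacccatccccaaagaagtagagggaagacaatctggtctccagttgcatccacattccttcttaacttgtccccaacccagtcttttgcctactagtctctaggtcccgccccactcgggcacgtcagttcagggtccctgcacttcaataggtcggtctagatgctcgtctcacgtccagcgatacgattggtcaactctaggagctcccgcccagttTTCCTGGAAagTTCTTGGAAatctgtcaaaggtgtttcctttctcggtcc
Socs3: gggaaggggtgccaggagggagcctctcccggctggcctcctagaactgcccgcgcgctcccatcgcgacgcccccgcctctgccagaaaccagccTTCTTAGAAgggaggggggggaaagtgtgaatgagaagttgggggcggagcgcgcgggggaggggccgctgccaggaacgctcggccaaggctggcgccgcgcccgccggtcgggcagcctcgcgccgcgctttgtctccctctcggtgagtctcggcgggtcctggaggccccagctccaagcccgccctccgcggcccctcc
The Cish matches, TTCCTGGAA and TTCTTGGAA, began at positions 1 and 12 relative to the RefSeq start, and the Socs3 match, TTCTTAGAA, at position -154. Both RefSeq starts lie inside the genes as GENCODE M21 draws them. A match describes these letters and does not show that a STAT was bound.

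Among the kinases Jak2 stood furthest from its control level. Control libraries (replicates 1, 2 and 3, the order used throughout) read 12.20, 12.08 and 12.21 on the log2 scale, and stress libraries 12.51, 12.37 and 12.59. Every stress library lay above every control library. The mean was 12.16 ± 0.075 (SD, n = 3) in control and 12.49 ± 0.11 in stress, a difference of 0.33 ± 0.072 (SE; 1.26-fold, 95% interval 0.16 to 0.50). With an unadjusted p of 0.0024 it ranked 276 of 14098 genes, yet the limma adjusted p of 0.120 did not pass the threshold of 0.05. Jak2, the kinase of the prolactin, growth hormone and erythropoietin receptors, lies on the plus strand of chromosome 19 (chr19:29251828-29313080, GENCODE M21 on GRCm38).

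**Figure D1:**
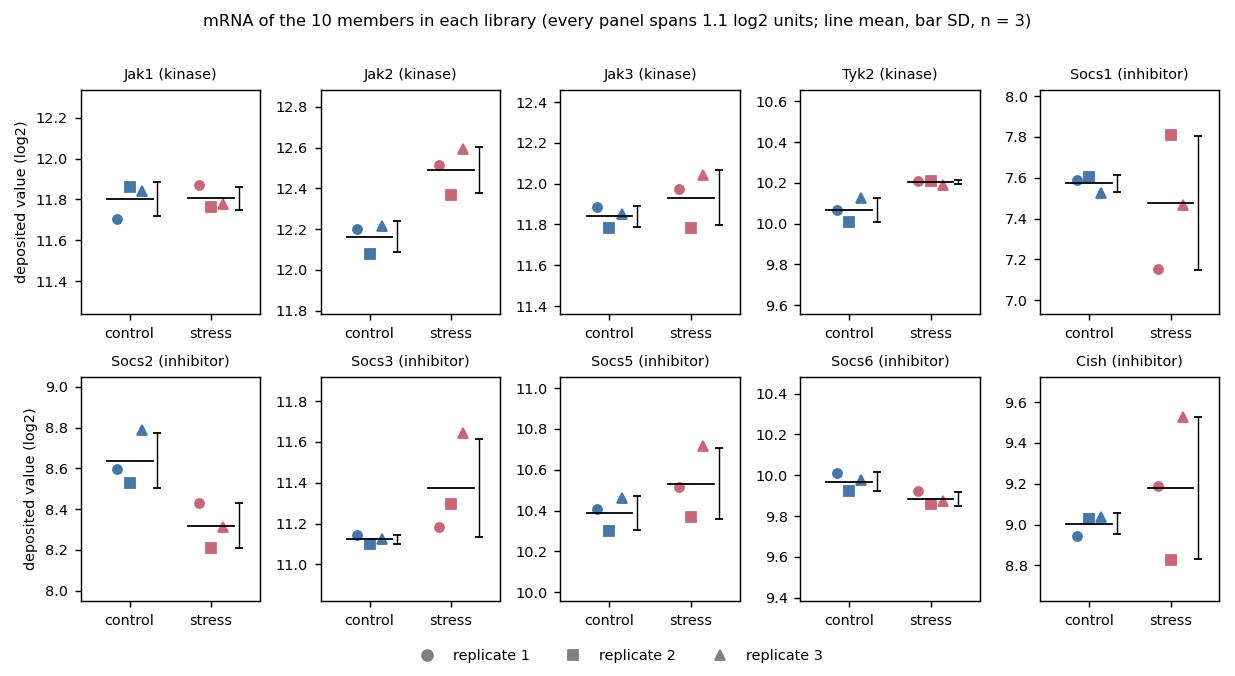
Deposited log2 values (y axis) of the 10 members in control and stress libraries (x axis). Each symbol is a library, its shape the replicate number, each line a group mean and each bar the SD. Stress libraries stood apart from control libraries for Jak2, Tyk2 and Socs3 (above) and for Socs2 (below).

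Tyk2, which serves the type I interferon, IL-12 and IL-23 receptors, was at 10.07, 10.01 and 10.12 in control and 10.21, 10.21 and 10.19 in stress. The stress libraries were again all above the control libraries and lay within a narrow band (SD 0.0096 against 0.059 in control). The difference was 0.14 ± 0.050 (SE; limma adjusted p = 0.237), short of the threshold. An antisense transcript of the opposite strand overlaps Tyk2 in the annotation, and the labels do not say whether counting used the strand.

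Jak1, the kinase of gp130, the interferon receptors and the common gamma chain receptors, had almost the same level in both groups. It was 11.70, 11.86 and 11.84 in control and 11.87, 11.76 and 11.78 in stress, with the groups interleaved. The difference was 0.0038 ± 0.060 (SE; limma adjusted p = 0.981), and its 95% interval ran from -0.14 to 0.14, that is from 0.909-fold to 1.11-fold of control. Within a library Jak2 exceeded Jak1 by 0.49, 0.22 and 0.37 in control and by 0.64, 0.60 and 0.81 in stress, so the balance between these kinases was further towards Jak2 in each stress library. These are differences of log2 values that are not scaled for gene length, and only their shift between groups can be read. The pair joins the kinases with the largest and the smallest difference, so no test is given. Jak2 minus Socs3 overlapped between the groups (0.98 to 1.09 in control, 0.95 to 1.33 in stress). So did Socs3 minus Socs1 (3.49 to 3.60 in control, 3.49 to 4.17 in stress). Jak2 minus Socs2 and Socs3 minus Socs2 did not overlap.

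Jak3, known as the partner of the common gamma chain in lymphocytes, was at 11.88, 11.78 and 11.85 in control and 11.97, 11.78 and 12.04 in stress. Stress replicate 2 lay just below the lowest control, and the other stress libraries lay above all controls. The difference of 0.092 ± 0.075 (SE; limma adjusted p = 0.548) did not pass, with a 95% interval of -0.083 to 0.27. Leaving out stress replicate 3 gave 0.038, and leaving out stress replicate 2 gave 0.17. The 17 T and NK cell markers, none at 0, had a summed log2 level of 10.6 to 11.3 in control and 10.9 to 11.5 in stress, and 3 of the 16 tested were higher and 13 lower in stress, none past the threshold. Gzmb, with the highest mean of this list, was at 9.62, 8.44 and 9.60 in control and 10.15, 9.12 and 9.34 in stress. The share of Jak3 transcripts that came from lymphocytes was not tested. In the annotation Jak3 overlaps Insl3 on the same strand, and Insl3 itself was listed at 6.81 to 6.89 in control and 6.81 to 7.09 in stress.

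Of the inhibitors, Socs2 had the smallest p. This brake on growth hormone signalling lies on chromosome 10 (chr10:95385362-95417180, minus strand). It stood at 8.60, 8.53 and 8.79 in control and 8.43, 8.21 and 8.31 in stress, so every stress library was below every control library. The means were 8.64 ± 0.13 (SD, n = 3) and 8.32 ± 0.11, a difference of -0.32 ± 0.090 (SE; 95% interval -0.53 to -0.11). It ranked 764 by p, and its limma adjusted p of 0.165 did not pass. The muscle markers, whose summed log2 level ran from 12.8 to 14.2 in control and from 11.6 to 13.2 in stress, had lower values too (14 of 14 tested). So did the endothelial markers (10 of 10, with 13.1 to 13.3 in control and 12.9 to 13.0 in stress). Fibroblast (11 of 12), adipocyte (3 of 3) and T and NK cell markers (13 of 16) were mostly lower as well. Neutrophil markers were higher in 8 of 10. With the muscle marker mean as a covariate Socs2 was at -0.29. The part of the endothelial and other markers in the Socs2 difference was not tested.

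Socs3, the inhibitor that binds gp130 and the G-CSF receptor, lies on chromosome 11 (chr11:117966079-117970047, minus strand). It was tightly grouped in control, at 11.14, 11.10 and 11.12, and spread out in stress, at 11.19, 11.30 and 11.64. All stress libraries were above all controls, although stress replicate 1 cleared the highest control only narrowly. The difference was 0.25 ± 0.11 (SE; 1.19-fold, 95% interval -0.0075 to 0.51, limma adjusted p = 0.298). Much of it rested on stress replicate 3: without that library the difference was 0.12. With the muscle covariate it was 0.089. In stress replicate 3 the summed neutrophil markers were at their highest (13.2, against 12.5 to 13.0 in control and 12.9 and 12.0 in the other stress libraries) and the muscle markers at their lowest. Mmp9 weighed most in this sum, at 12.25, 11.95 and 12.58 in control and 12.11, 10.63 and 12.41 in stress. With all listed markers the sum overlapped between the groups. Without Mmp9, which was taken out after its values were seen, it was higher in every stress library than in any control library. The part of the neutrophil markers was not tested.

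Cish, the first described STAT5-induced inhibitor of the family, also had its highest value in stress replicate 3. It was at 8.95, 9.03 and 9.04 in control and at 9.19, 8.83 and 9.52 in stress, with stress replicate 2 below all controls and the other stress libraries above them. The difference was 0.18 ± 0.16 (SE; 1.13-fold, limma adjusted p = 0.599), and the SD in stress was 0.35 against 0.051 in control. Without stress replicate 3 the difference was 0.0039, without stress replicate 2 it was 0.35, and with the muscle covariate it was -0.0092. Cish thus has no direction that holds across these libraries. In the annotation a transcribed pseudogene and an antisense RNA overlap it on the opposite strand.

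Cish and Socs2, both induced through Stat5, differed in opposite directions on average. The direction of Cish did not hold, as its difference was 0.0039 without stress replicate 3 and -0.0092 with the muscle covariate. Within a library Cish exceeded Socs2 by 0.35, 0.50 and 0.25 in control and by 0.76, 0.61 and 1.21 in stress. The lowest stress value was above the highest control value, and the mean difference between the genes was 0.37 ± 0.13 (SD, n = 3) in control and 0.86 ± 0.31 in stress. The pair was chosen after its values were seen, so no test is given.

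Socs1, an inhibitor that blocks the kinases directly and restrains interferon signalling, had the lowest level of the members per kb of the longest coding transcript. It was at 7.59, 7.61 and 7.53 in control and 7.15, 7.81 and 7.47 in stress, where the extremes of all 6 libraries were both found. The difference was -0.096 ± 0.15 (SE; limma adjusted p = 0.780), and it turned to 0.066 without stress replicate 1. Its interval of -0.45 to 0.26 spans both signs.

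Socs5 and Socs6, which also act on receptor tyrosine kinases, overlapped between the groups. Socs5 was at 10.41, 10.30 and 10.46 in control and 10.52, 10.37 and 10.71 in stress (0.14 ± 0.092 SE, limma adjusted p = 0.454). Its difference was 0.053 without stress replicate 3 and 0.029 with the muscle covariate. Socs6 was at 10.01, 9.92 and 9.98 in control and 9.92, 9.86 and 9.87 in stress, where only the highest stress library reached the lowest control (-0.085 ± 0.050 SE, limma adjusted p = 0.419). The interval for Socs6 ran from -0.20 to 0.033.

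**Figure D2:**
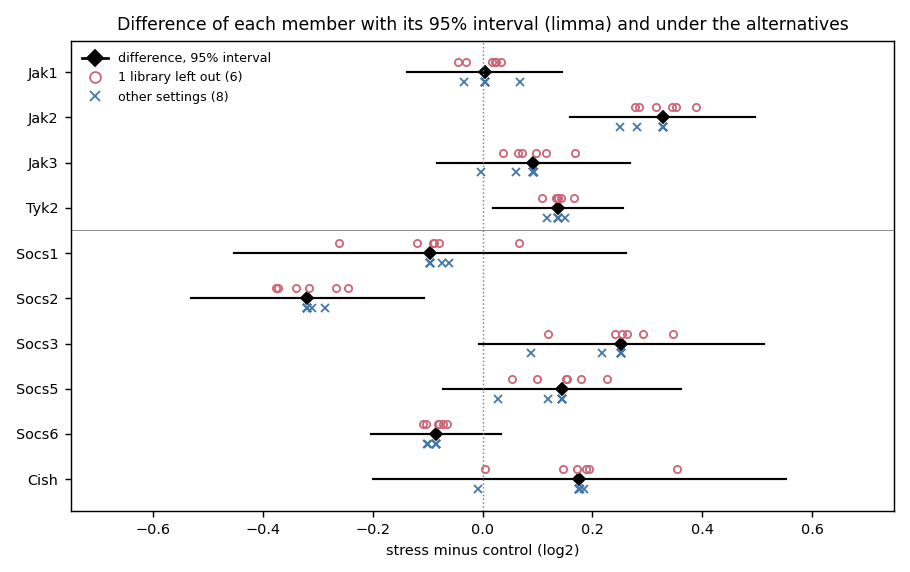
Stress minus control difference in log2 value (x axis) for each member (y axis). Diamonds and lines give the difference and its 95% interval from limma, open circles the differences with 1 library left out, crosses those under the 8 other settings. In the main fit the intervals of Jak2, Tyk2 and Socs2 are clear of 0, at 0.33, 0.14 and -0.32, while Jak1 stands at 0.0038. Intervals are not adjusted for the number of genes and are not drawn for the alternatives.

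None of the 10 members passed the limma threshold, at which 0.0355% of the 14098 tested genes were called (3 higher, 0.0213%, and 2 lower, 0.0142%). At an unadjusted p under 0.05 there were 3 members, Jak2 and Tyk2 higher and Socs2 lower, against 17.4% of all genes. The groups did not overlap for 4 members, against 24.3% of all genes, and with 3 libraries a group an exact permutation test of any one gene cannot go below p = 0.1. By size alone, 5.09% of tested genes had a larger difference than Jak2, 5.38% than Socs2 and 9.43% than Socs3.

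The differences of all 4 kinases were above 0, although that of Jak1 turned to -0.035 after quantile normalization and that of Jak3 to -0.0027 with the muscle covariate. Over all tested genes 50.6% were above 0. The kinase median was 0.11, against 0.0014 over all genes. The inhibitors were split, 3 above and 3 below 0, with a median of 0.029 and a range from -0.32 to 0.25. With stress replicate 1 left out the medians were close and in the other order (kinases 0.10, inhibitors 0.11), and with stress replicate 3 left out they were 0.090 and -0.038. The kinase mean was 11.46, 11.43 and 11.51 in control and 11.64, 11.53 and 11.65 in stress, every stress library above every control. This separation depended on Jak2, which had the largest kinase difference (0.33). The mean of Jak1, Jak3 and Tyk2 alone overlapped between the groups. The inhibitor mean was 9.45, 9.41 and 9.49 in control and 9.40, 9.39 and 9.59 in stress, and overlapped.

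Subtracting the inhibitor mean from the kinase mean within each library gave 2.02 in every control library and 2.24, 2.14 and 2.06 in stress replicates 1 to 3. This difference was larger in each stress library, by 0.13 on average, with a spread of 0.090 (SD, n = 3) in stress and 0.0033 in control. The values are not scaled for gene length, so only the shift between groups can be read. This separation depended on Socs2 and on Jak2. Without Socs2 the inhibitor mean was 9.62, 9.59 and 9.62 in control and 9.59, 9.63 and 9.84 in stress. The difference in stress replicate 3 was then below that of every control library. The same held when Jak2, rather than Socs2, was left out. The stress library in which the difference over all members was smallest, replicate 3, was the one with the highest Socs3, Socs5 and Cish. The members were chosen with earlier results known, so these class values carry no test.

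**Figure D3:**
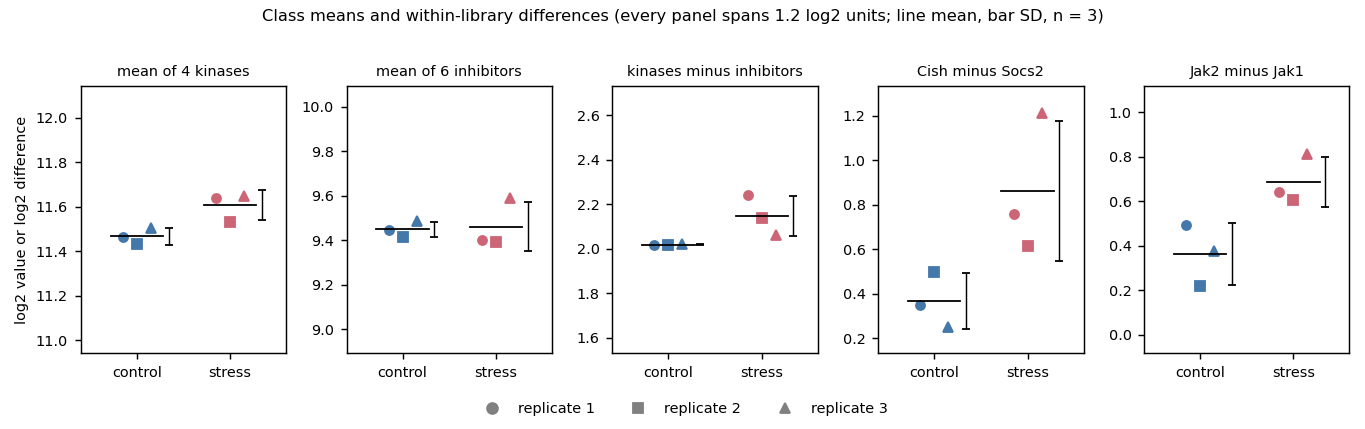
Mean log2 value of the 4 kinases and of the 6 inhibitors, their difference, and the within-library differences Cish minus Socs2 and Jak2 minus Jak1 (y axis), for control and stress libraries (x axis). Symbols are libraries, lines means and bars SD. The kinase minus inhibitor difference is 2.02 in all controls and 2.06 to 2.24 in stress.

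Levels of different genes can be set side by side only per length. On the log2 scale per kb of the longest coding transcript, control levels were 9.83 for both Jak3 and Jak2, 9.77 for Socs3 and 9.51 for Jak1. The first 3 overlapped between neighbours in the order, and Jak1 lay below Socs3 in every library. Further down came Socs5 at 8.17, Tyk2 at 7.79, Cish at 7.49, Socs2 at 7.49, Socs6 at 7.38 and Socs1 at 6.03. Cish, Socs2 and Socs6 overlapped in control. In stress Jak2 led at 10.16, before Socs3 at 10.02 and Jak3 at 9.92, and Cish (7.67) did not overlap with Socs2 (7.17). Socs3 thus exceeded Jak1 per kb without overlap in either group, and Socs5, the next inhibitor, likewise exceeded Tyk2. With merged exon lengths Jak2, Socs3 and Jak3 still held the first 3 places, but Socs2 moved from place 8 to place 10 in control.

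The rest of the pathway was read from lists of 95 genes, of which 77 were tested and none passed. Unadjusted, 11 were higher and 1 lower at p under 0.05, against 8.26% and 9.15% of all tested genes. The groups did not overlap for 14 higher and 2 lower, against 12.1% and 12.3% of all genes.

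Among the ligands, 7 of 15 tested were higher and 8 lower, with a median of -0.032. Il11, a gp130 cytokine, was at 7.34, 7.19 and 7.18 in control and 6.94, 6.93 and 7.04 in stress (-0.27 ± 0.071 SE, limma adjusted p = 0.154). Csf3, which encodes G-CSF, was at 9.45, 9.24 and 9.48 in control and 9.82, 9.43 and 10.20 in stress (0.43 ± 0.18 SE, limma adjusted p = 0.287). The groups overlapped, and the highest value was in stress replicate 3, as for Socs3.

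Of 29 tested receptors 17 were higher and 12 lower (median 0.030). Prlr, the prolactin receptor, and Epor, the erythropoietin receptor, fell under the filter on low values and were not tested. Ghr, the growth hormone receptor, differed by 0.22 ± 0.073 (SE; limma adjusted p = 0.202). Csf3r, the G-CSF receptor, which is restrained by Socs3, was at 9.47, 9.53 and 9.63 in control and 10.13, 9.9996 and 10.36 in stress. No stress library reached down to a control, and the difference was 0.62 ± 0.097 (SE; 1.54-fold, limma adjusted p = 0.0881). Csf3r is also a neutrophil marker. Osmr, the oncostatin M receptor that pairs with gp130, was at 11.79, 11.48 and 11.79 in control and 12.17, 12.12 and 12.25 in stress (0.49 ± 0.092 SE, limma adjusted p = 0.104). Both stood above control without overlap, as Jak2 did, and neither passed.

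The 7 STAT genes had 6 members above 0 and a median of 0.075, with the smallest p-values for Stat3 (0.25 ± 0.061 SE, limma adjusted p = 0.138) and Stat6 (0.13 ± 0.048, limma adjusted p = 0.247). Stat5a (0.12 ± 0.061 SE, limma adjusted p = 0.371) and Stat5b (0.075 ± 0.051, limma adjusted p = 0.474) did not pass. STAT-induced genes other than the members were higher in 7 of 8, with a median of 0.15. The germinal centre repressor Bcl6 was at 9.58, 9.59 and 9.72 in control and 10.18, 10.03 and 10.22 in stress (0.52 ± 0.070 SE, limma adjusted p = 0.0769). Pim1, a survival kinase, was at 9.49, 9.72 and 9.63 in control and 10.08, 9.92 and 10.33 in stress (0.50 ± 0.11 SE, limma adjusted p = 0.121).

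Inhibitors outside the member list had no common direction: 6 of 14 were higher, 8 lower, and the median was -0.017. The SUMO ligases Pias4 (0.20 ± 0.064 SE, limma adjusted p = 0.196) and Pias1 (0.15 ± 0.053, limma adjusted p = 0.221) led this list by p. The SOCS box ligase, built from elongins B and C, Cul5 and the RING protein Rnf7, was lower in 4 of 4 subunits, but only slightly (median -0.064, range -0.099 to -0.034). Elob stood at -0.083 ± 0.054 (SE, limma adjusted p = 0.464) and Rnf7 at -0.099 ± 0.068 (limma adjusted p = 0.479).

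The genes whose pattern over the 6 libraries was most like that of Jak2 were Tspan5 (Pearson r = 0.999), a tetraspanin, Cic (0.997), a transcriptional repressor, and Zfp219 (0.996), a zinc finger gene. For Socs2 they were Gtf2h5 (0.9997), a subunit of TFIIH, Pcca (0.992), a subunit of propionyl-CoA carboxylase, and Mcam (0.989), an adhesion molecule of endothelial cells and pericytes. With 6 libraries from 2 groups such values are common: 416 genes exceeded r = 0.9 with Jak2 and 177 with Socs2. None of the 6 named genes passed the limma threshold (adjusted p from 0.135 to 0.324).

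MiRNAs were examined because the series' title names miR-337-3p and because several SOCS transcripts are textbook miRNA targets. Mature sequences are shown for the 6 whose values are set beside those of members with a match, 5′ to 3′, with the seed (bases 2 to 8) in capitals. The sequences are from RefSeq on GRCm38.p6, and miR-221-3p and miR-222-3p share one seed.
miR-337-3p: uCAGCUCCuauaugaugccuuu
miR-337-5p: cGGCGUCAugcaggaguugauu
miR-155-5p: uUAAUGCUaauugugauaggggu
miR-9-5p: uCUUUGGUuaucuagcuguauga
miR-221-3p: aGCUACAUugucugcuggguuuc
miR-222-3p: aGCUACAUcuggcuacugggucu

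Matches to the full seed were sought in the longest 3′ UTR that GENCODE M21 gives each member, on the transcript strand. Socs2 held the match shared by miR-221-3p and miR-222-3p at 2 places of its 1163 bases, where 7.12% of 3′ UTRs of similar length hold it at all. Socs5 held the miR-9-5p match at 2 places of 2595 bases (21.9% of similar UTRs). Single matches were found for miR-155-5p in Socs1 (11.4%) and Socs6 (24.1%), and for miR-337-3p in Socs3 (17.4% of similar UTRs), Socs1 (21.4%) and Jak3 (6.13%). Jak2 held none for miR-337-3p and 1 for miR-337-5p, whose match is in 1.29% of similar UTRs. Matches to the seed that miR-19a-3p and miR-19b-3p share were in Socs1, Socs3 and Socs5 (13.1% to 19.5% of similar UTRs). Those of miR-203-3p were in Socs1, Socs2, Socs3 and, at 2 places, Socs6 (12.7% to 43.3%). Those of miR-135a-5p were in Jak1, Jak2, Socs1 and Socs6 (11.2% to 34.9%). Sites are shown for the miRNAs printed above, other than the Socs6 site, with the match in capitals.
Socs2, site at base 172, miR-221-3p and miR-222-3p: aaggtgtgaagATGTAGCtagg
Socs2, site at base 892, miR-221-3p and miR-222-3p: tttaccccttgATGTAGCtgtg
Cish, site at base 1248, miR-221-3p and miR-222-3p: aagggccgcagATGTAGCtccc
Socs5, site at base 1820, miR-9-5p: gcagacctttaACCAAAGactt
Socs5, site at base 1910, miR-9-5p: gaggaacatatACCAAAGtgtc
Socs1, site at base 20, miR-155-5p: cgctgtgccgcAGCATTAagtg
Socs3, site at base 192, miR-337-3p: tgaggggagggGGAGCTGccac
Socs1, site at base 1961, miR-337-3p: tcacactccctGGAGCTGgccc
Jak3, site at base 17, miR-337-3p: aggggcgagagGGAGCTGctgc
Jak2, site at base 111, miR-337-5p: agaagaaactgTGACGCCgtct
A match of this kind does not show that the transcript was bound.

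Values of miRNAs are CPM, read counts scaled to library size with TMM factors. MiR-221-3p was at 2452, 1995 and 2365 in control and 2945, 2619 and 3599 in stress, without overlap. MiR-222-3p was at 1161, 927 and 1220 in control and 1391, 1220 and 1756 in stress, where the groups just touched. The log2 differences were 0.43 ± 0.17 (SE; edgeR adjusted p = 0.187) and 0.40 ± 0.19 (adjusted p = 0.247), and neither passed. Socs2, with 2 matches to the shared seed, had the lower mean in stress (-0.32), and the mRNA and miRNA libraries cannot be matched tumour by tumour. Cish held 1 match to the same seed (15.6% of similar UTRs) and was 0.18 higher on average, without a direction that held across the libraries. An effect of these miRNAs on Socs2 or Cish was not tested.

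MiR-9-5p, an abundant miRNA, was at 7837, 6076 and 7054 in control and 9334, 8541 and 10229 in stress. All stress libraries were higher, with a log2 difference of 0.42 ± 0.14 (SE; edgeR adjusted p = 0.165). Socs5, with 2 matches to its seed, was 0.14 higher in stress and did not pass the limma threshold. An effect of miR-9-5p on Socs5 was not tested. For miR-155-5p the groups overlapped (337, 296 and 543 in control, 394, 269 and 412 in stress; -0.13 ± 0.28 SE, edgeR adjusted p = 0.820). Socs1, with 1 match, overlapped as well.

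MiR-337-3p was rare, at 11, 48 and 22 reads in control and 3, 5 and 2 in stress, or 5.04, 17.5 and 7.17 against 1.13, 2.22 and 1.26 CPM. Control and stress did not overlap, as for 26.4% of tested miRNAs, and the log2 difference was -2.65 ± 0.63 (SE; edgeR adjusted p = 0.138; DESeq2 adjusted p = 0.0193). Control replicate 2 held the most reads, and without it the difference was -1.96 (edgeR adjusted p = 0.349). Of the members with a match, Socs3 was 0.25 higher, Jak3 0.092 higher and Socs1 0.096 lower (-0.096). MiR-337-5p, from the other arm of the same hairpin, was at 51.3, 148 and 77.3 CPM in control and 48.4, 45.3 and 18.9 in stress, again without overlap. Its log2 difference was -1.28 ± 0.47 (SE; edgeR adjusted p = 0.178; DESeq2 adjusted p = 0.0887), and -0.76 without control replicate 2. Jak2, with 1 match to it, was 0.33 higher in stress, and neither passed its threshold. The other tested miRNAs of the list overlapped between the groups: miR-203-3p differed by 0.23 (edgeR adjusted p = 0.615), miR-19a-3p by -0.16 (0.616) and miR-19b-3p by -0.22 (0.518). Leaving out 1 library moved them from 0.091 (control replicate 2) to 0.57 (control replicate 1) for miR-203-3p, from -0.24 (control replicate 3) to -0.044 (control replicate 2) for miR-19a-3p, and from -0.37 (stress replicate 3) to -0.055 (stress replicate 2) for miR-19b-3p. MiR-135a-5p and miR-375-3p had at most 11 reads in a library and were not tested.

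In all, edgeR called 0 of 462 tested miRNAs (0.0%), while 110 (23.8%) had an unadjusted p under 0.05. DESeq2 called 32 of 470 (6.81%). The miRNA libraries held 1738056 to 3202224 reads.

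**Figure D4:**
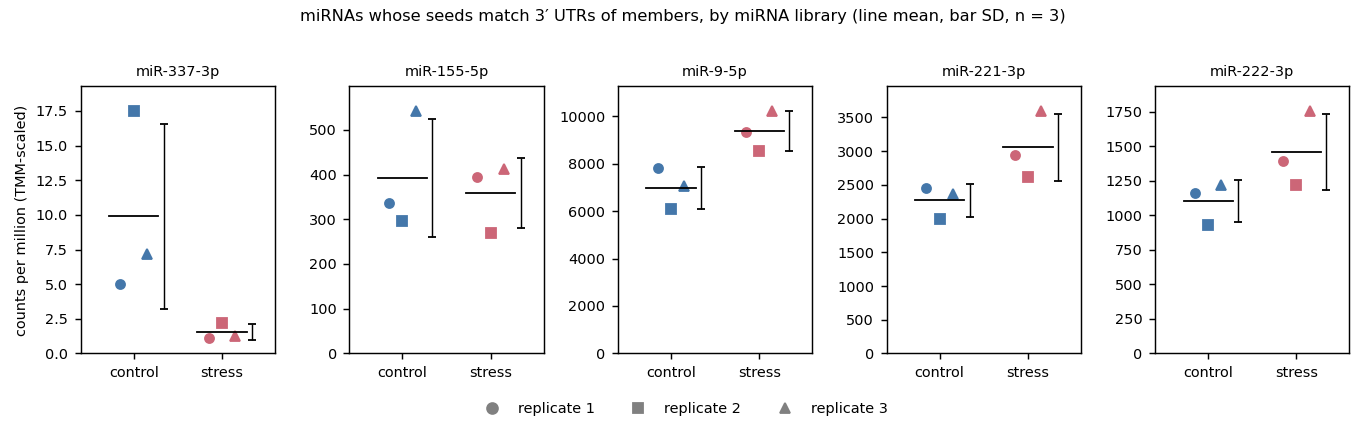
TMM-scaled CPM (y axis) of 5 miRNAs in control and stress miRNA libraries (x axis). Symbols are libraries, lines means and bars SD. Stress libraries lie below control for miR-337-3p, above it for miR-9-5p and miR-221-3p, and overlap for miR-155-5p and, just, for miR-222-3p.

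The cell type makeup was read from 10 marker lists, none of which had a gene at 0. The epithelial keratins Krt18 (13.79 to 14.09) and Krt8 (13.75 to 13.89) were present in all 6 libraries of these mammary tumours. Fibroblast markers were lower in stress in 11 of 12 (summed log2 level 16.5 to 17.6 in control, 16.2 to 16.6 in stress) and neutrophil markers higher in 8 of 10 (12.5 to 13.0, 12.0 to 13.2). The neutrophil sum overlapped and was weighted towards Mmp9. When Mmp9 was taken out, after its values were seen, the groups did not overlap. Of all tested single genes, 24.3% did not overlap either. No marker passed the threshold. Macrophage markers were higher in 4 of 11 and lower in 7 (15.4 to 15.5 in control, 15.1 to 15.7 in stress), and epithelial markers were split 4 and 7 (15.4 to 15.5, 15.3 to 15.5). The B and plasma cell list had 1 of 3 tested higher (9.33 to 9.84 in control, 8.95 to 9.55 in stress), the adipocyte list 0 of 3 (9.17 to 9.92, 8.70 to 9.11) and the erythroid list 2 of 5 (10.53 to 11.84, 10.86 to 11.13).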

How the data were processed

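The members and the lists of pathway genes, markers and miRNAs were chosen with earlier results of these data known. The deposited mRNA table holds log2 values that the authors had normalized by a method the labels do not describe; base 2 was assumed for the logarithm. Values shrink towards each other at low expression, so small differences of weak genes are understated, and depth is unknown. Tools named in the submitters' processing notes were kallisto 0.46.1 and bcl2fastq, with mm10 as build. For miRNAs the authors deposited raw read counts, 1738056 to 3202224 per library; where a mature miRNA had several precursors, that with most reads was kept.

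Of 35453 mRNA rows, 12658 listed at 0 in all libraries and 26 named by a date were left out. The planned test allowed for either unit, and limma 3.58.1 (R 4.3.3; variance trend, robust) compared stress with control on 14098 genes with a mean of at least 4, without covariates, two-sided, with Benjamini-Hochberg adjustment over all genes and 0.05 as threshold. MiRNAs were tested with edgeR 4.0.16 (TMM, filterByExpr, robust quasi-likelihood) on 462 miRNAs, with DESeq2 1.42.0 as an alternative; SEs of miRNA differences are the difference over the square root of F. Both fits were run on simulated data with planted changes. For mRNA these were larger than the difference of any member, so they do not show whether differences of the members' size could be called. Named were all members, the 2 genes with the smallest p of each pathway list and the 3 genes most like the leading kinase and inhibitor. The listed miRNAs and up to 2 abundant markers per list were named as well. Insl3, Stat5a, Stat5b, Ghr, Prlr, Epor and the neutrophil sum without Mmp9 were added after the values were seen. The labels do not say whether replicate numbers pair the samples, which were treated as unpaired in the main fits. Alternatives were other scalings, filters and variance models, a muscle covariate, a replicate block and leaving out each library.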

Additional observations from a re-analysis of the deposited data

How the results depend on the processing

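No member passed the threshold in the fits as reported or under any of the 14 alternatives run for the mRNA table (adjusted p from 0.107 for Jak2 at the stricter filter to 0.995 for Jak3 with the muscle covariate). Jak2 (0.25 to 0.39), Tyk2 (0.11 to 0.17), Socs3 (0.089 to 0.35), Socs5 (0.029 to 0.23), Socs2 (-0.38 to -0.24) and Socs6 (-0.11 to -0.064) kept their sign under all 14. Jak1 turned to -0.035 after quantile normalization, and Jak3 (-0.0027) and Cish (-0.0092) turned with the muscle covariate; the cause was not tested. With 1 library left out Jak1 ran from -0.044 to 0.033, Socs1 from -0.26 to 0.066, and the inhibitor median from -0.038 (stress replicate 3 left out) to 0.11 (stress replicate 1 left out); it was -0.042 with the muscle covariate.

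Of all genes, 3 higher and 2 lower were called. The lower calls numbered 5 after quantile normalization and 7 with a filter at a mean of 6. No gene was called higher or lower (0 and 0) with the muscle covariate or with a replicate block. With 1 library left out the calls ran from 0 to 4 higher and from 0 to 2 lower, with 0 and 0 without control replicate 1, control replicate 3, stress replicate 1 or stress replicate 3. Same-numbered control and stress libraries did not deviate together (r = -0.079, 0.082 and -0.018 for mRNA, -0.48, 0.31 and -0.13 for miRNA), and not every library correlated best with its own number. The replicate block gave 0 miRNA calls.

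DESeq2 called 32 miRNAs, edgeR without a filter on low counts 69, and edgeR with 1 library left out 0 to 82, the last without control replicate 1. MiR-337-3p was called in all 3 of these cases (-2.69, -2.62 and -2.92), and not under the other 6 alternatives (-3.001 to -1.96, the weakest without control replicate 2). MiR-337-5p was called without the filter (-1.24; -0.76 without control replicate 2) and miR-9-5p without control replicate 1 (0.54). MiR-155-5p ran from -0.29 to 0.18 over its 9 alternatives. Depth limits miR-337-3p, with 2 to 5 reads per stress library, and kept miR-135a-5p and miR-375-3p untested.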
